A study of Mus musculus with 6 samples.

Results

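The genes described here are the IFIT genes and the genes of ISG15 conjugation in cultured mouse aortic smooth muscle cells (VSMCs), which contract the wall of the artery. The 8 genes, Ifit1, Ifit2, Ifit3, Isg15, Usp18, Uba7, Ube2l6 and Herc6, were chosen by name, with their old against young values known, to set Ifit2 beside the other 7. They are 8 of 22180 genes measured, and each was read by 1 probe set. Because the choice used this comparison, the values of these 8 genes are a description and carry no test.

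RNA of 6 samples of primary aortic VSMCs from C57BL/6 mice was hybridised to 1 Affymetrix whole-transcript array each. The young group held 3 samples from mice of 12 weeks and the old group 3 samples from mice of 58 to 78 weeks. All 6 samples are labelled male and were untreated, so no interferon or other agent was added to either group. The study's methods name commercial cells of 2 suppliers, each grown in its own medium for at most 3 passages. The supplier of each sample is not stated in any source used here, so supplier, medium and age cannot be told apart. The labels do not say whether samples came from separate mice, and the spread between samples may therefore be technical.

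The IFIT proteins are made when interferon reaches a cell, and they bind viral or otherwise foreign RNA and hinder its translation. ISG15 is a small protein built of a pair of ubiquitin-like domains that is likewise induced by interferon and is joined to other proteins. UBA7 activates ISG15, UBE2L6 carries it, a HERC ligase (HERC6 in mice) attaches it, and USP18 takes it off again. USP18 also binds the interferon receptor and dampens its signal.

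Interferon acts on such genes through a DNA element in their promoters, the interferon-stimulated response element (ISRE). The RefSeq promoter windows of build GRCm38.p6, which run from 250 bases before to 50 bases after a gene's start, held 7 of the 8 genes, all but Usp18. They were searched on both strands for the ISRE core GAAANNGAAA and for the shorter core AANNGAAA that interferon regulatory factors (IRFs) bind. Every ISRE core contains an IRF core. The ISRE core was in the windows of Isg15, Ifit1 and Ifit3, and in 3.44% of all 32851 windows. The Isg15 and Ifit1 stretches are shown because these were the members with the largest differences, and the Ifit3 stretches because Ifit3 held the same letters with a far smaller difference. Uba7 is shown as the member with an IRF core and no ISRE core. Capitals mark the ISRE core, or the IRF core for Uba7.
Isg15, chr4:156200819-156200938, minus strand: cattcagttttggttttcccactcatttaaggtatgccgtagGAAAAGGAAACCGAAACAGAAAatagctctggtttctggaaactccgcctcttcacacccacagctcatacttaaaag
Ifit1, chr19:34640769-34640888, plus strand: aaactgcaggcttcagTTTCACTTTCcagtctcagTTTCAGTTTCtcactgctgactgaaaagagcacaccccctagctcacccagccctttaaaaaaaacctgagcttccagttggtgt
Ifit3, chr19:34583363-34583392, plus strand: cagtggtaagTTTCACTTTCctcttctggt
Ifit3, chr19:34583397-34583426, plus strand: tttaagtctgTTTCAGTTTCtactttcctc
Uba7, chr9:107975507-107975566, plus strand: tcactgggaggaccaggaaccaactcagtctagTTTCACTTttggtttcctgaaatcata

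In Isg15, 3 overlapping ISRE cores ran from base -78 to base -57 before the start. In Ifit1 the cores lay at -104 to -95 and at -85 to -76, in Ifit3 at -156 to -147 and at -122 to -113, and both genes carried them on the opposite strand. The IRF core of Uba7 lay at -27 to -20, and that motif was in 23.9% of all windows. Neither window of Ifit2 held an ISRE or IRF core, and neither motif was in the windows of Ube2l6 and Herc6. A match is a run of letters and not a measured site, and a window without a match says only that these letters are not in it.

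**Figure D1:**
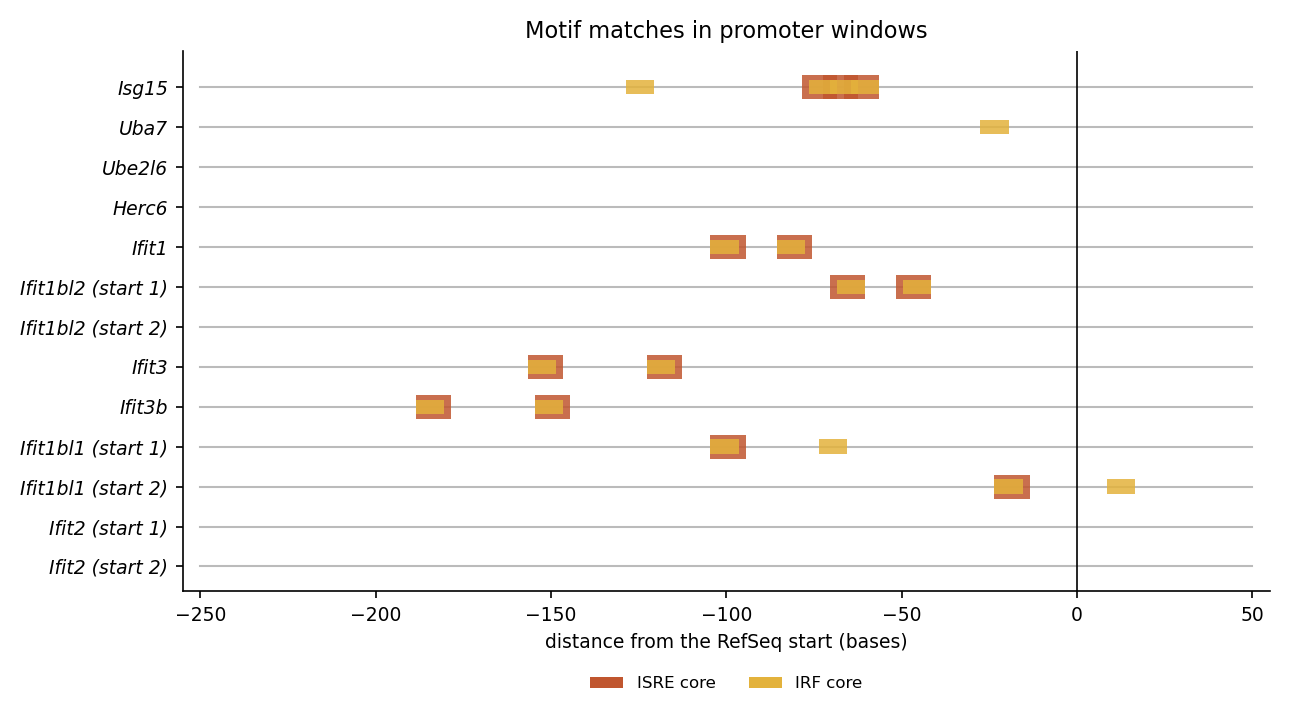
Position of each motif match, in bases from the gene's start on the x axis, in the promoter windows of the IFIT genes, Isg15 and the conjugation genes, 1 line per window. The windows of Isg15, Ifit1 and Ifit3 hold ISRE cores, and those of Ifit2, Ube2l6 and Herc6 hold no match of either motif.

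The arrays correlated with each other at 0.960 to 0.986 over all probe sets, and young replicate 3 stood somewhat apart, with a mean correlation of 0.969 and the narrowest spread of signals. One label was at odds with the data. Xist, the RNA of the inactive X chromosome in female cells, had log2 signals of 3.49, 3.56 and 3.92 in the young samples and of 6.32, 7.81 and 9.80 in the old ones, although all are labelled male. The Y-linked genes Eif2s3y, Kdm5d and Uty gave signals in all 6 samples, with the lowest value of each in old replicate 3 (8.07, 5.99 and 6.91). Since all 3 old samples had more Xist than any young one, this and age cannot be told apart. The differences of the 8 genes are also given without old replicate 3, the sample with most Xist. The old samples that remain still had more Xist than any young one, so leaving it out does not part Xist from age.

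The smooth muscle label was checked on 8 markers. The actin gene Acta2 was bright in every sample, from 11.37 to 12.82, and Cnn1, which encodes calponin, had signals of 5.88, 8.76 and 5.38 in young and 8.02, 8.90 and 8.54 in old samples. Its difference was 1.81 ± 0.77, higher in old although young replicate 2 lay among the old samples. It was the only one of the 8 past the study's threshold (adjusted p = 0.43 in limma). In the higher direction 0.325% of all genes were past it. The difference of Cnn1 ran from 1.17 without young replicate 3 to 2.86 without young replicate 2. Of the 6 fits that left out a sample, only the one without young replicate 2 kept the call. Of the 8 markers, 4 had a higher mean in old samples and 4 a lower one. Acta2 differed by 0.54 ± 0.33, Myocd by -0.33 ± 0.18 and Synpo2, whose groups did not overlap, by -0.42 ± 0.16. The mean over the 8 markers was 7.31 to 8.57 in young and 7.93 to 8.13 in old samples. Of 10 macrophage and leukocyte markers, 5 lay below the array median on every array, among them Ptprc at 2.95 to 3.68 and Adgre1 at 4.11 to 4.63, and the list mean was 5.38 to 5.64 in young and 5.36 to 5.48 in old samples. Cd68 was 7.94, 8.43 and 10.33 in young and 7.77, 7.73 and 7.63 in old samples, which did not overlap. Its difference was -1.19 ± 0.52, and -0.47 without young replicate 3. It was not past the study's threshold over all 6 samples. It was past it in some other fits, among them those without young replicate 1 (-1.67) and with arrays centred on their medians. Csf1r, whose groups did not overlap either, differed by -0.30 ± 0.13. Of the 10 markers, 5 had a lower mean in old samples and 5 a higher one. Of 5 plasmacytoid dendritic cell markers, the list mean was 7.16 to 7.30 in young and 6.90 to 7.10 in old samples, a list that includes Bst2, which is also among the further interferon-induced genes below. Bst2 differed by -1.09, and without it the list mean was 6.08 to 6.17 in young and 6.003 to 6.21 in old samples. The defining marker Siglech was dim, at 5.34 to 5.50 in young and 5.09 to 5.16 in old samples, which did not overlap. Tcf4 went the other way, at 9.03 to 9.08 in young and 9.16 to 10.01 in old samples, which did not overlap either. Its difference was 0.40 ± 0.22. Ccr9 differed by -0.24 ± 0.14 and Irf8 by 0.04 ± 0.115. Endothelial markers had list means of 5.39 to 5.45 and 5.18 to 5.49, and fibroblast markers of 7.97 to 8.29 and 7.92 to 8.01. Some single markers differed more than these means did. Pdgfra, a fibroblast marker, was 11.08 to 11.55 in young and 10.03 to 10.64 in old samples, a difference of -0.93 ± 0.19, and it passed the study's limits when young replicate 1 (-1.02) or old replicate 3 (-1.10) was left out. The fibroblast marker Dpt differed by 0.56 ± 0.22 and the endothelial marker Emcn, whose groups did not overlap, by -0.66 ± 0.16. The part of these cell types in the results was not tested.

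In old VSMCs, 7 of the 8 genes had a lower mean signal than in young VSMCs and Ifit2 had a higher one. Isg15 and Ifit1 differed most, at 4.98 and 4.43 times lower. Usp18 was 2.78, Uba7 2.09, Herc6 2.07 and Ube2l6 1.60 times lower, and Ifit3, at 1.17 times lower, had groups that overlapped. Ifit2 was 1.42 times higher. These are whole cultures, in which fewer cells expressing a gene and less RNA per cell cannot be told apart.

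**Figure D2:**
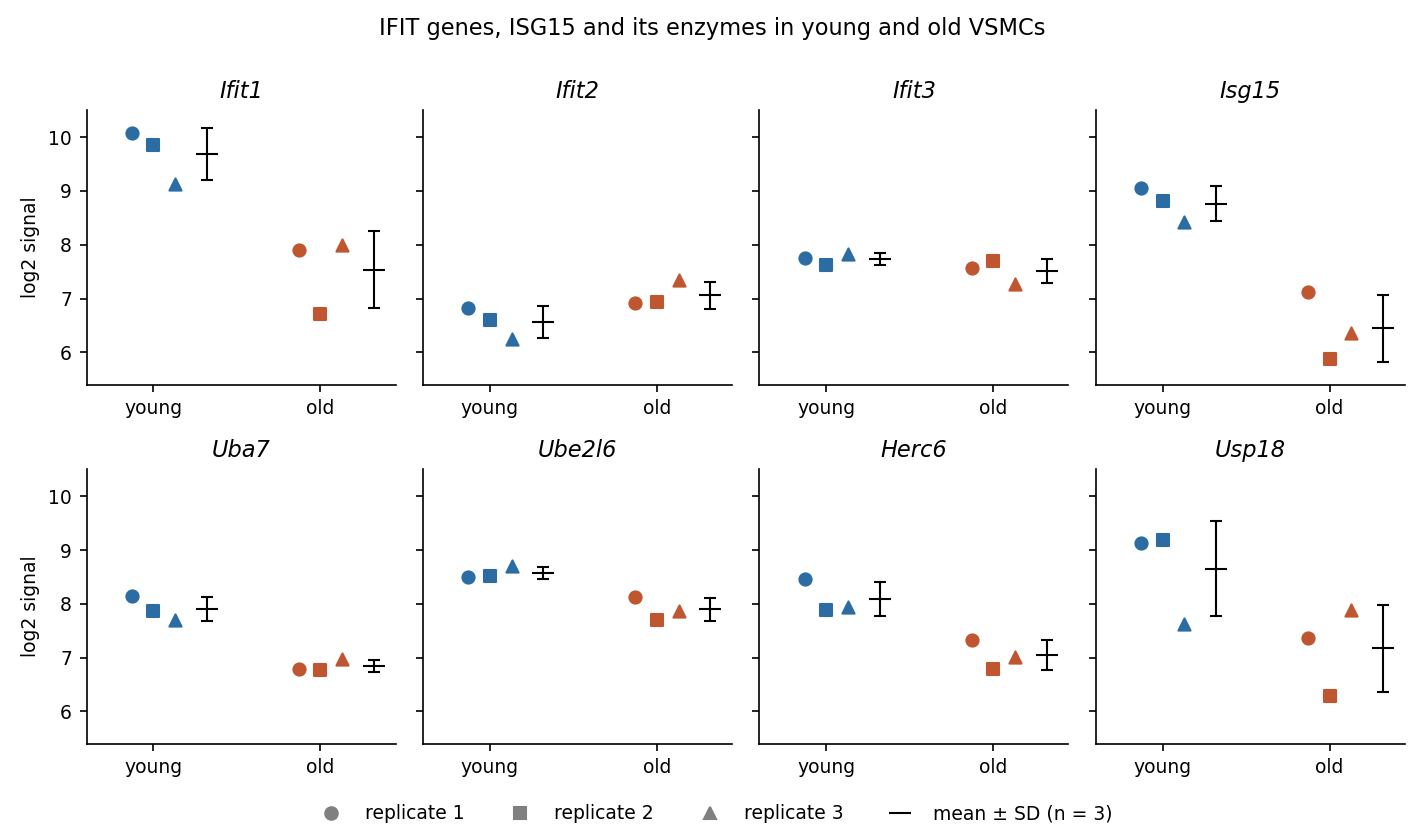
Log2 signal of each of the 8 genes in each of the 6 samples, with points for samples and bars for the group mean and SD (n = 3). Young and old points are apart in Ifit1, Isg15, Uba7, Ube2l6 and Herc6, with old lower, and in Ifit2, with old higher. They overlap in Ifit3 and Usp18.

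Ifit1 encodes the IFIT protein that binds RNA caps lacking a methyl mark. Its log2 signals were 10.07, 9.85 and 9.13 in young replicates 1 to 3 and 7.90, 6.71 and 7.999 in old replicates 1 to 3. The lowest young sample lay 1.14 above the highest old one. The means were 9.68 ± 0.49 and 7.54 ± 0.72 (SD, n = 3 each), a difference of -2.15 ± 0.37 on the log2 scale (SE from limma). Without old replicate 2, the lowest sample, the difference was -1.73, the smallest in size of the 6 fits that each left out a sample.

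Ifit2, whose protein pairs with the other IFIT proteins and has been linked to cell death, went the other way. Its signals were 6.83, 6.61 and 6.25 in young and 6.91, 6.93 and 7.35 in old samples. The groups did not overlap, but young replicate 1 and old replicate 1 were only 0.08 apart. The means were 6.56 ± 0.29 and 7.06 ± 0.25, a difference of 0.50 ± 0.19. Leaving out young replicate 3, the sample with the lowest signal, gave 0.35, and leaving out old replicate 3, that with the highest, gave 0.36.

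Ifit3, whose protein stabilises IFIT1 in human cells, had signals of 7.76, 7.62 and 7.84 in young and 7.58, 7.69 and 7.27 in old samples. Old replicate 2 lay above young replicate 2, so the groups overlapped. The difference was -0.23 ± 0.14, and -0.10 without old replicate 3. The 3 IFIT genes of the same chromosome cluster therefore had a mean that was much lower in old samples (Ifit1), one whose groups overlapped (Ifit3) and one that was higher (Ifit2).

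Isg15, the modifier itself, had signals of 9.05, 8.82 and 8.42 in young and 7.12, 5.88 and 6.35 in old samples. Every young sample was at least 1.31 above every old one, the widest gap among the 8 genes. The means were 8.77 ± 0.32 and 6.45 ± 0.63, a difference of -2.32 ± 0.30. Leaving out each sample in turn gave -2.65 to -2.03.

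Uba7, the activating enzyme, had signals of 8.14, 7.88 and 7.70 in young and 6.79, 6.77 and 6.98 in old samples. The old samples lay close together, with an SD of 0.12, and 0.72 below the lowest young sample. The difference was -1.06 ± 0.14.

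Ube2l6, the conjugating enzyme that receives ISG15 from UBA7, had signals of 8.50, 8.52 and 8.71 in young and 8.13, 7.71 and 7.86 in old samples. The groups were 0.37 apart. The difference of -0.68 ± 0.14 was the smallest among the conjugation genes.

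Herc6, the ligase, had signals of 8.46, 7.89 and 7.94 in young and 7.34, 6.79 and 7.01 in old samples. The groups were 0.56 apart, with young replicate 1 standing above the other young samples. The difference was -1.05 ± 0.20.

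Usp18, which removes ISG15, varied most within the groups. Its signals were 9.14, 9.19 and 7.63 in young and 7.36, 6.30 and 7.88 in old samples. Young replicate 3 lay below old replicate 3, so the groups overlapped by 0.25. The means were 8.65 ± 0.89 and 7.18 ± 0.81, a difference of -1.48 ± 0.50, which became -1.99 without young replicate 3 and -1.04 without old replicate 2.

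At the study's threshold, a difference over 1 in size with an unadjusted limma p under 0.05, Ifit1, Isg15, Usp18, Uba7 and Herc6 were past it in the lower direction, 5 of 8, where 0.676% of all genes were. No member was past it in the higher direction, where 0.325% of all genes were. The groups did not overlap, with old lower, in 5 members and in 6.95% of all genes, and with old higher in Ifit2 and in 11.1% of all genes. Nothing is read from these shares, since the members were chosen on this contrast. None of the 8 passed an adjusted p under 0.05 in limma (0.0361% of all genes did in the lower and 0.00902% in the higher direction), while 6 had an unadjusted p under 0.05 in the lower direction and 1 in the higher, as 4.72% and 6.71% of all genes had.

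The count at the study's threshold depended on single samples, because Uba7, Herc6 and Usp18 lay near a limit. It was 2 without young replicate 1, where Uba7 was -0.94, Herc6 -0.87 and Usp18 -1.24. Without young replicate 2 it was 4, with Usp18 at -1.21, and without old replicate 2 it was 3, with Usp18 at -1.04 and Herc6 at -0.92. It stayed at 5 without young replicate 3, old replicate 1 or old replicate 3. Ifit1 and Isg15 were past the threshold in all 6 of these fits. Without old replicate 3, the sample with most Xist, Ifit1 was -2.38, Isg15 -2.27, Usp18 -1.83, Uba7 -1.13, Herc6 -1.03, Ube2l6 -0.66, Ifit3 -0.10 and Ifit2 0.36.

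**Figure D3:**
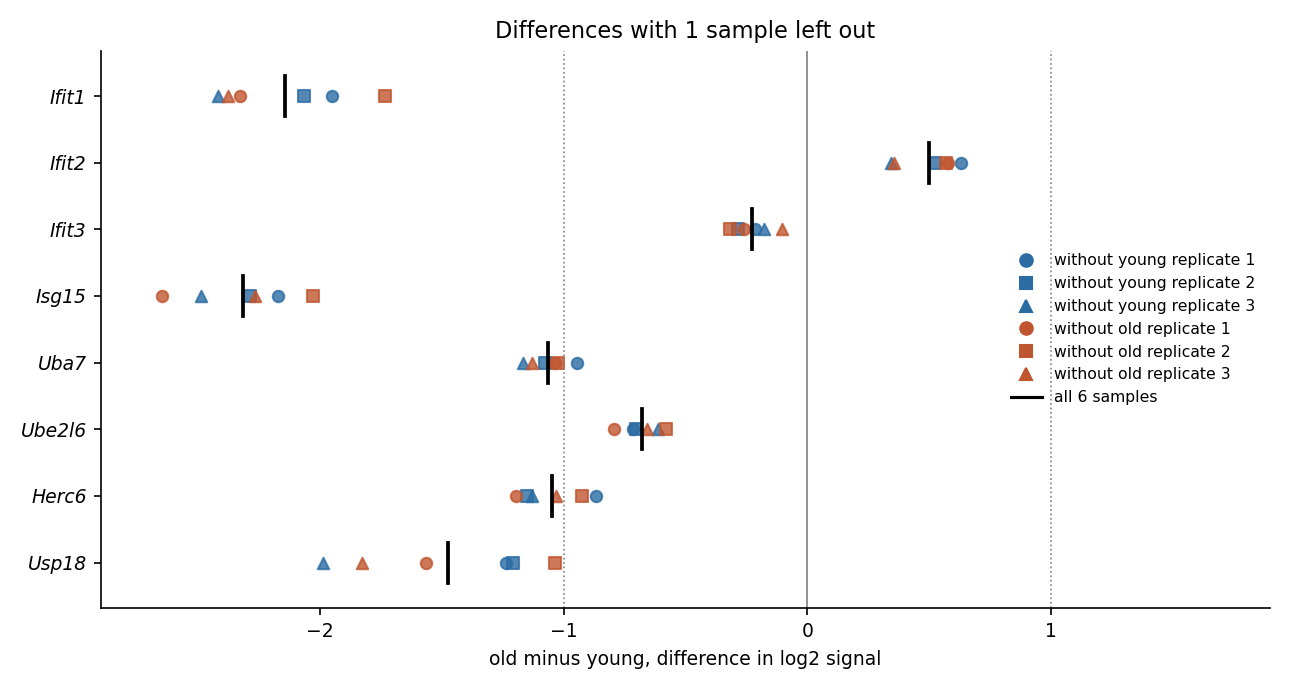
Difference of old minus young in log2 signal for each of the 8 genes, over all 6 samples and with each sample left out in turn. Ifit2 stays above 0, from 0.35 to 0.63, and the other 7 genes stay below 0 in every fit shown, with Usp18 moving most, from -1.99 to -1.04.

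Within the groups the 7 genes other than Ifit2 ranked the samples alike only in part. Old replicate 2 was the lowest old sample in 6 of the 7, all but Ifit3, where old replicate 3 was lowest. Young replicate 3 was the lowest young sample in 4 of the 7, and young replicate 1 the highest in 4. Other genes went the other way, with young replicate 3 the highest young sample in 2. The lowest was young replicate 2 in 2 and young replicate 1 in 1. Old replicates 1 and 3 were each the highest old sample in 3.

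Ifit2 was then set against the mean of the other 7 genes on each array. Signals of different probe sets have no common zero, so only the change of this offset between arrays can be read. The mean of the other 7 was 8.73, 8.54 and 8.19 in young and 7.46, 6.83 and 7.33 in old samples. Ifit2 minus that mean was -1.90, -1.93 and -1.94 in young and -0.55, 0.09 and 0.02 in old samples. Among the young samples Ifit2 and the mean of the others differed from sample to sample by nearly equal amounts, so that the SD of the offset was 0.02 (n = 3), against 0.35 among the old ones. The group means of the offset were -1.93 and -0.15, a difference of 1.78 ± 0.20, and 1.66 to 1.98 with each sample left out in turn.

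**Figure D4:**
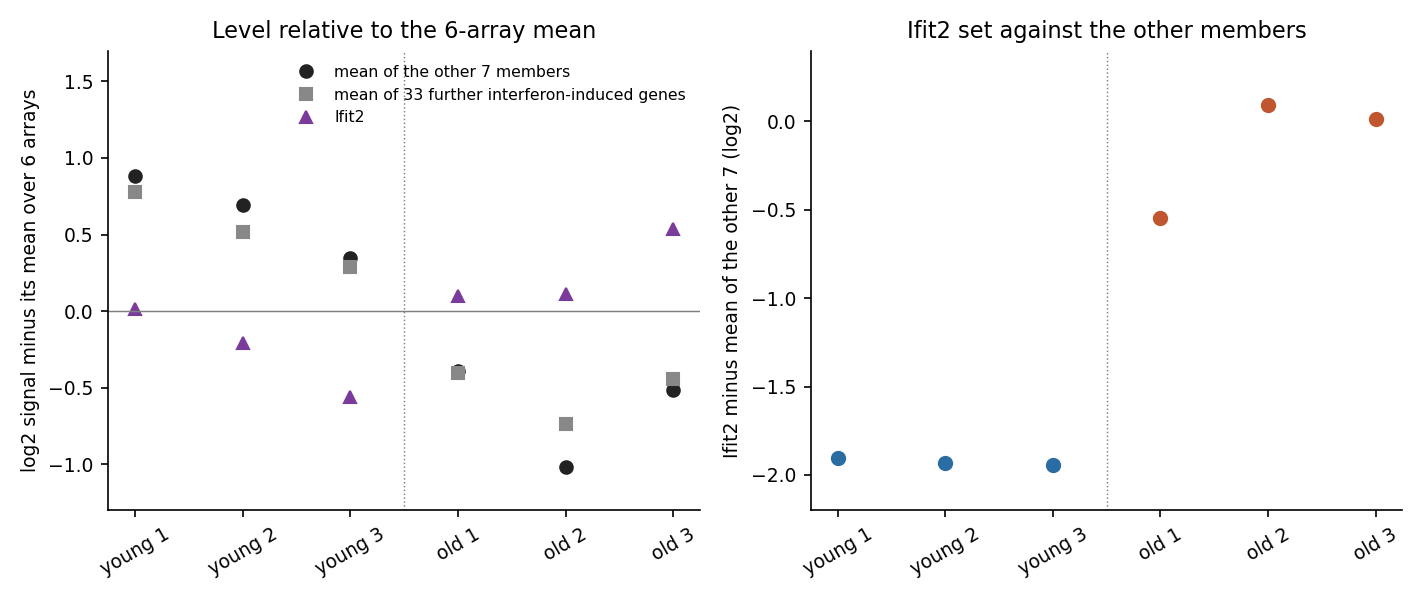
Left, Ifit2, the mean of the other 7 genes and the mean of 33 further interferon-induced genes on each of the 6 arrays. Each is shown as log2 signal minus its own mean over the 6 arrays. Right, Ifit2 minus the mean of the other 7 genes on each array, in log2 signal. From young to old, Ifit2 goes up by 0.50 while the mean of the other 7 differs by -1.28 and that of the further genes by -1.06.

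The genes whose profiles over the 6 arrays were most like that of Ifit2, by the root mean square distance between gene-centred log2 signals among 10018 genes, were Yes1, Pacc1 and Alyref2, at 0.0441, 0.0563 and 0.0624. Yes1 encodes a kinase of the Src family, Pacc1 a chloride channel opened by acid and Alyref2 an mRNA export factor. Those most like the mean of the other 7 were Parp9, Ifih1 and Bst2, at 0.102, 0.113 and 0.143. These 3 are interferon-induced genes: Parp9 acts with a ubiquitin ligase, Ifih1 encodes the RNA sensor MDA5 and Bst2 the virus tether tetherin. The distance takes in the difference between young and old samples, which was known when the members were chosen. Likeness by it is a description, and shared control was not tested.

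In RefSeq order the mouse cluster on chromosome 19 runs Ifit2, Ifit3, Ifit1bl1, Ifit3b, Ifit1bl2 and Ifit1. None of the 3 further genes was past the study's threshold over all 6 samples weighted equally. Ifit3b, a close copy of Ifit3, had signals of 5.68, 4.85 and 4.57 in young and 4.20, 4.11 and 4.61 in old samples, a difference of -0.73 ± 0.28. It was -0.40 without young replicate 1 and -0.96 without young replicate 3, and with array weights it was -1.02 and past the threshold. Whether the Ifit3 and Ifit3b probe sets tell the copies apart is not known, and their values are uncertain to that extent. Ifit1bl2 differed by -0.16 ± 0.19. Ifit1bl1 was below the array median on every array and differed by -0.03 ± 0.31, a value that ran from -0.30 without young replicate 1 to 0.36 without young replicate 2.

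The promoter windows of the cluster were alike in part. Ifit3b carried the same ISRE core letters as Ifit3, at -188 to -179 and at -154 to -145. Ifit1 and the first of 2 starts of Ifit1bl2 lie 145 bases apart on opposite strands, so those windows share 245 of 300 bases and both hold the same 2 ISRE cores. The window of the second Ifit1bl2 start held neither motif, and the array values do not show which start was used.

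The genes next to the cluster were not past the study's threshold over all 6 samples either, but 4 of them passed it in other fits. On the Ifit2 side, the death receptor gene Fas differed by -0.81 ± 0.21, Ch25h, which encodes an interferon-induced enzyme that hydroxylates cholesterol, by -0.74 ± 0.31, and Lipa, the gene of lysosomal acid lipase, by 0.39 ± 0.15. On the Ifit1 side, Slc16a12, Pank1 and Kif20b differed by 0.20 ± 0.18, 0.93 ± 0.40 and 0.57 ± 0.42. Without old replicate 1, Fas was -1.001 and Ch25h -1.12, both past the threshold, and without old replicate 3 they were -0.60 and -0.45. Pank1 was past it without young replicate 2 (1.22), old replicate 1 (1.21) or old replicate 2 (1.11) and with arrays centred on their medians (1.002), and was 0.46 without old replicate 3. Kif20b was past it without young replicate 2, at 1.01, and was 0.17 without young replicate 3.

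Of 6 partners of ISG15 and USP18, none was past the study's threshold in limma. An unadjusted p under 0.05 was found in 2, both lower in old, and in 4.72% of all genes in that direction. Trim25, a ubiquitin and ISG15 ligase that is itself induced by interferon, had signals of 8.83, 8.84 and 8.53 in young and 8.26, 7.80 and 8.10 in old samples, a difference of -0.68 ± 0.16. Ifnar2, the interferon receptor chain that USP18 binds, differed by -0.47 ± 0.14. Both had groups that did not overlap, with old lower, as 6.95% of all genes had. Arih1, a ligase that can attach ISG15, differed by 0.24 ± 0.13, and Skp2, which takes part in USP18 turnover, by 0.35 ± 0.20. Itgal, a chain of the LFA-1 receptor for free ISG15, differed by 0.26 ± 0.12 while below the array median on every array. Arih1 and Itgal also had groups that did not overlap, with old higher, as 11.1% of all genes had. Stat2, which brings USP18 to the receptor, differed by 0.03 ± 0.33, with 10.60 in old replicate 3 and 9.20 and 9.51 in the other old samples, and by -0.38 without old replicate 3.

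Upstream, 10 genes of interferon production and signalling were measured. Irf7, the transcription factor that interferon induces and that drives further interferon production, had signals of 8.76, 8.57 and 8.01 in young and 6.82, 6.29 and 7.02 in old samples. Its difference of -1.74 ± 0.24 was past the study's threshold, with an adjusted p of 0.0734 in limma. It was the 1 gene of the 10 that was, beside 0.676% of all genes in the lower direction. Irf9, the DNA-binding subunit of the complex that acts on the ISRE, differed by -0.51 ± 0.13 and the kinase Jak1 by -0.30 ± 0.12. Ifnb1, the gene of interferon beta, was dim on every array, at 2.91 to 3.33. The median of the 10 was -0.07, and that of all genes 0.03.

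Further interferon-induced genes were read from a list without the members, of which 33 of 38 were measured. This list too was chosen with earlier results of these data known, so its counts are a description. All 33 had a lower mean in old VSMCs, from -2.10 to -0.21 with a median of -1.002, and 43.7% of all genes had a lower mean. At the study's threshold 17 were lower (16 without old replicate 3, 13 without young replicate 1 or old replicate 2) and none higher, beside 0.676% and 0.325% of all genes. The median of the 7 members other than Ifit2 was -1.06. None of the 33 genes had a higher mean in old VSMCs, as Ifit2 did.

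By limma over all genes, Mx2, Zbp1 and Trim30a passed an adjusted p under 0.05, as 0.0361% of all genes did in the lower direction. Because of how the list was chosen, these adjusted p-values describe the genes and are no independent test. Mx2, the gene of an antiviral GTPase, had signals of 6.36, 6.37 and 6.34 in young and 4.46, 4.15 and 4.82 in old samples, and fell by 1.88 on the log2 scale (SE 0.17, adjusted p = 0.0264). Zbp1, which encodes a sensor of Z-form nucleic acid, fell by 1.97 (SE 0.20, adjusted p = 0.0264). Trim30a fell by 1.67 (SE 0.17, adjusted p = 0.0276) and was named after its values were seen. With 5 arrays these calls were lost in most fits. The adjusted p of the 3 genes lay from 0.0517 to 0.165 when young replicate 1, 2 or 3 or old replicate 1 or 2 was left out, and without old replicate 3 it was 0.02 for Mx2, 0.0368 for Trim30a and 0.0709 for Zbp1. Oas2 and Oasl2, of the oligoadenylate synthetase family, differed by -2.10 ± 0.26 and -2.09 ± 0.33, with adjusted p of 0.0533 and 0.0905. The mean of the 33 genes was 8.29, 8.03 and 7.80 in young and 7.11, 6.78 and 7.07 in old samples, which ranked the 6 samples as the mean of the 7 members did.

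Of the 33 genes, 24 had promoter windows, and the ISRE core was in those of 10, or in 36.7% of their 30 windows. In the members it was in 3 of 8 windows.

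The ubiquitin enzymes most like those of ISG15 stayed near the median of all genes. Of 11 listed, 6 were measured, with a median of 0.03 and a range of -0.13 in Herc3 to 0.30 in Herc4. Uba6, an activating enzyme related to UBA7, differed by 0.20 ± 0.17, and Ube2l3, the nearest relative of UBE2L6, by 0.13 ± 0.15. The large ligases Herc1 and Herc2 differed by -0.09 ± 0.11 and -0.08 ± 0.11. None of the 6 was past the study's threshold in limma. An unadjusted p under 0.05 was found in 1, Herc4, higher in old, and in 6.71% of all genes in that direction. Of 9 measured genes of other ubiquitin-like modifiers, none was past it and none had an unadjusted p under 0.05. Their differences ran from 0.02 in Sumo3 to 0.33 in Uba3, the NEDD8-activating enzyme, with a median of 0.16.

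**Figure D5:**
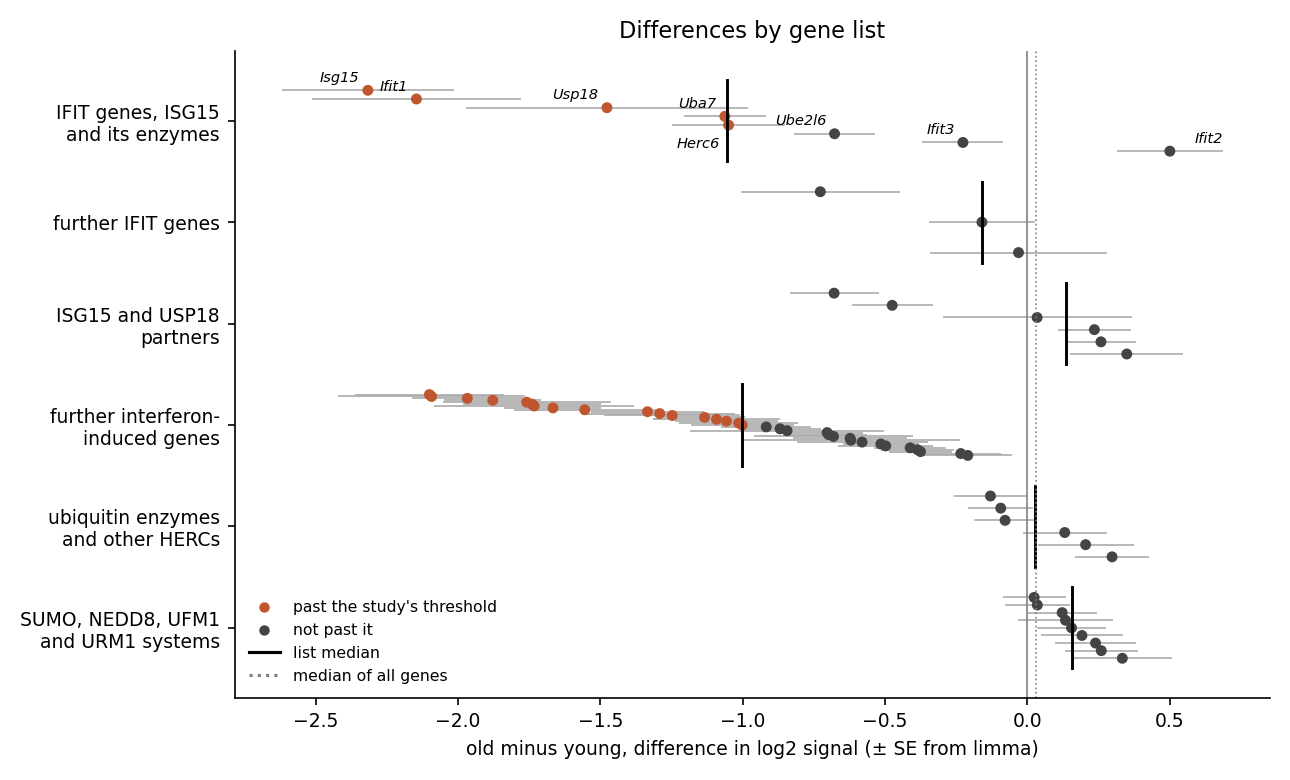
Difference of old minus young in log2 signal with its SE, 1 point per gene, for the 8 genes and for 5 lists, with list medians as bars and the median of all genes as a dotted line. The 8 genes and the further interferon-induced genes lie mostly below -0.5, and the ubiquitin enzymes and other modifiers lie between -0.13 and 0.33.

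Array scaling moved the values near the limit of 1. With each array centred on its median, which put the median of all genes at 0.11, Uba7 was -0.99 and Herc6 -0.97, and 3 of the 8 genes were past the study's threshold. Under that scaling and under quantile normalization Ifit2 was higher in old by 0.58 and 0.54, and the median of the other 7 was -0.99 and -1.06.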

How the data were processed

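Log2 signals, 1 per probe set and array, were used as deposited. The authors name RMA in the oligo package (background correction, quantile normalization) for them, while Transcriptome Analysis Console is the tool in the submitters' processing notes. Arrays give no read depth; their number limits the precision. Of 41345 probe sets, 23521 carried 1 gene symbol in the platform annotation, 1820 several and 16004 none here. The brightest probe set by mean over the 6 arrays stood for each of 22180 genes.

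The fit of old against young used lmFit and eBayes of limma 3.58.1 (R 4.3.3), with Benjamini-Hochberg adjustment over all genes, after a test on simulated data. The differences are old minus young. Python 3.11.15, pandas 2.3.3 and matplotlib 3.10.9 served for promoters and plots. The members and lists were chosen with earlier results of these data known. Genes named were the members, the Ifit relatives, the partners, up to 4 of each other list by size of difference, the 3 nearest profiles to Ifit2 and to the other 7 (mean signal of at least 6), the 3 neighbours on each side of the cluster, the genes of the label check and, chosen after their values were seen, Trim30a, further markers and some genes of the signalling and ubiquitin lists. The IRF core and the marker list without Bst2 were added after the data were seen. A planned protein comparison was not run, and a further planned motif is not reported here. Alternatives were quantile normalization, median centring, a filter at a mean signal of 5, probe set means, array weights, eBayes with trend and robust settings, a block for the replicate number, leaving out each sample, and an adjusted p in place of the study's threshold.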

Additional observations from a re-analysis of the deposited data

How the results depend on the processing

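The number of members past the study's threshold, 5, became 3 with arrays centred on their medians and 0 at an adjusted p under 0.05, and ran from 2 without young replicate 1 to 5, with 3 without old replicate 2. The 17 further interferon-induced genes past the threshold became 3 at an adjusted p under 0.05 and ran from 13 to 19 with 1 sample left out. The median of the 7 members other than Ifit2 ran from -1.20 to -0.94, Ifit2 from 0.35 to 0.63, and the offset of Ifit2 from 1.66 to 1.98 in those fits. At an adjusted p under 0.05, 0 members were lower over all samples, 3 with array weights, 1 with trend and robust settings, 1 with the replicate block and 1 without old replicate 1. Genes lower at that limit numbered 8, and 63, 19, 24 and 5 in those 4 settings, 14 with the filter on dim genes, and 3, 0, 7, 0 and 4 without young replicate 1, 2 or 3 and old replicate 2 or 3. Replicate numbers did not pair the samples: deviations of same-numbered samples correlated at 0.0364, 0.0194 and -0.0147. With that block, 5 members stayed past the study's threshold. No result changed direction in a called value under any alternative run. With 3 arrays a group, differences of the size seen in Ifit3 could not be told from the spread.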
